A study of Mus musculus with 48 samples.

Results

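High against low share of mitochondrial transcripts was compared among 48 RNA sequencing libraries of mouse hypothalamus, each a pool of tissue from 3 male C57BL/6 mice. The share of a library is the summed RPKM of the 13 protein-coding genes of the mitochondrial genome over all its RPKM (reads per kilobase of exon, scaled to library size). Within each of 8 series of 6 libraries, the 3 libraries with the highest share formed the high-share side and the 3 with the lowest the low-share side. This put 24 of the 48 libraries on each side, with none left over. The libraries were thus chosen by a measured value, the mitochondrial RPKM share, and the sides come from the data and carry no treatment, since every series gave the same number of libraries to both.

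The 8 series differ in housing, period and surroundings. In the early period the label age is 2 months, and all mice lived at 10 dBA under normal pressure (quiet). It has a pair of free-moving series (early free-moving a and b) and a pair of hind limb unloaded series (early unloaded a and b), which share their labels pair by pair. In the late period the label age is 3 months, although the design text gives 2 months for all mice. Late unloaded and free-moving mice were kept either at 85 dBA and 0.9 atm (late unloaded noise, late free-moving noise) or at 10 dBA and normal pressure (late unloaded quiet, late free-moving quiet). Hind limb unloading lifts the hind legs off the floor and serves as a ground model of weightlessness. The 6 libraries of a series carry the numbers 1, 5, 9, 13, 17 and 21 in their titles, with no unit. The labels do not say that the pools were independent in any further way, so each p-value speaks to pool-to-pool spread alone.

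Mitochondria carry their own small circular genome, which is transcribed inside the organelle as long RNAs from both strands and then processed into single messengers. It codes for core subunits of the respiratory chain and of ATP synthase, and for the ribosomal and transfer RNAs used to translate them. The other subunits, and the proteins that copy, transcribe and translate that genome, are encoded in the nucleus and imported. In brain tissue, with its high demand for ATP, mitochondrial messengers are among the most abundant of the cell. In a library counted as a share of a fixed total they displace nuclear messengers, so the values below were computed after the mitochondrial genes had been removed and each library set to one sum. They are given as TPM (here parts in 1000000 of the RPKM left without the mitochondrial genes).

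The share used to form the sides ranged from 12.1% to 62.4% in the high-share libraries (median 36.4%) and from 8.95% to 45.1% in the low-share libraries (median 17.3%). Because it chose the sides it is described here and not tested. The gap between the sides was uneven across series. It was widest in late unloaded noise, with 48.1 ± 1.70% in the high-share and 19.2 ± 10.6% in the low-share libraries (SD, n = 3 each), and in early free-moving a, with 55.1 ± 6.98% and 28.4 ± 9.22%. It was 14.3 points in early unloaded a, where the high side held 1 library at 48.2% and the others at 18.5% and 16.4%, 13.7 in late free-moving noise, 9.85 in early unloaded b and 9.83 in early free-moving b. In the late quiet series the sides lay close together, at 12.7 ± 0.717% in high-share and 10.2 ± 1.34% in low-share libraries of the free-moving mice, and at 14.8 ± 1.57% and 13.3 ± 0.51% in those of the unloaded mice. The last library inside the high side and the first outside it had 13.83% and 13.75% in late unloaded quiet, the narrowest margin (0.0781 points). The widest margin was 15.9 points in late unloaded noise, where these libraries had 46.9% and 31.0%. As a share of estimated reads the medians were 20.2% in high-share and 7.62% in low-share libraries, and by that measure 2 libraries in each late quiet series would change side.

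**Figure D1:**
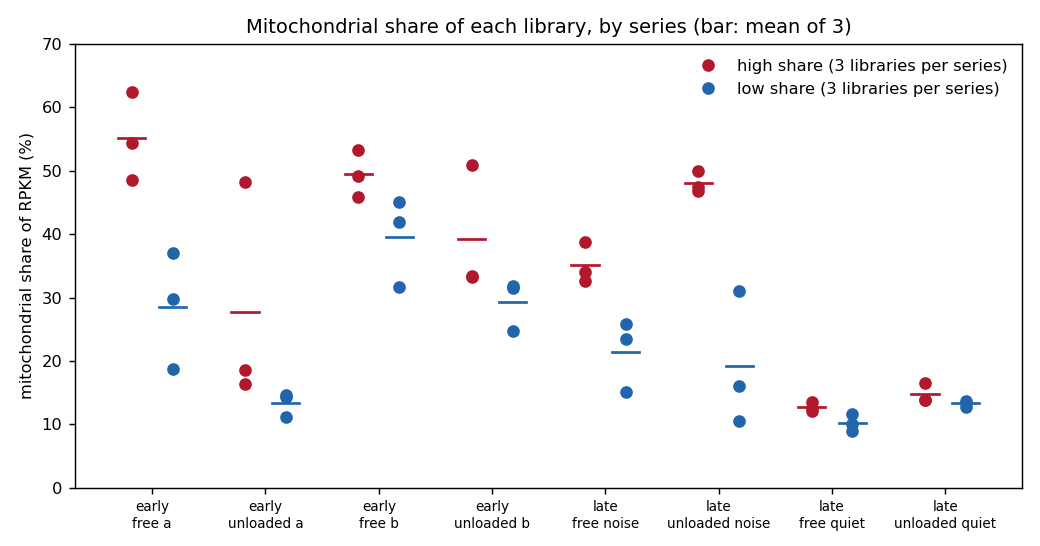
Mitochondrial share of RPKM (y axis, %) in each of the 48 libraries, by series, with the 3 high-share libraries left of the 3 low-share libraries and a bar at each mean. The sides are 28.9 points apart in late unloaded noise and 1.47 points apart in late unloaded quiet.

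Each of the 13 mitochondrial genes had a higher median RPKM on the high side, which the choice of the sides largely fixes. mt-Co1, the catalytic subunit of cytochrome c oxidase, had a median of 45676 RPKM in high-share libraries (10058 to 98194) and of 17792 RPKM in low-share libraries (8909 to 69531). mt-Nd4l, a small complex I subunit, had 5617 RPKM (1066 to 12963) and 1635 RPKM (674 to 6531). The log2 ratio of the side medians was lowest for mt-Nd3, at 1.26, and highest for mt-Nd4l, at 1.78. Of the mitochondrial RPKM, mt-Co1 gave a median of 25.7% in high-share and 26.5% in low-share libraries, mt-Cytb 12.6% and 12.3%, mt-Nd2 6.33% and 5.81%, and mt-Nd4l 2.99% and 2.59%. One library stood apart from the other 47. In early free-moving a number 1, on the low side, 10 of the 13 genes took a part of the mitochondrial RPKM outside the range of the other libraries, among them mt-Co2 with 24.8% against 8.76% to 10.96%, and mt-Nd4l with 0.306% against 2.09% to 3.31%. Counts of a gene list that move by more than 1.5 times without this library are given both ways.

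Depth, estimated from the steps of the RPKM values, was 28.3 to 55.2 M reads per library (M, 1000000). No pair of libraries was identical (highest correlation 0.994). Markers of the labelled tissue were measured. All 21 listed transcription factors of the hypothalamus passed the filter on low values (a mean of at least 1 TPM). That filter does not tell tissues apart, since all 11 thalamus and all 13 striatum markers passed it too. The vasopressin precursor Avp averaged 11009 ± 6295 TPM in high-share and 9167 ± 4795 TPM in low-share libraries (SD, n = 24 each). The oxytocin precursor Oxt averaged 5218 ± 2307 TPM in high-share and 4624 ± 1891 TPM in low-share libraries (SD, n = 24 each). Genes of neighbouring tissue were also measured. Early unloaded a number 9, on the low side, held 35966 TPM of pituitary markers in sum, where the high-share libraries held 355 to 585 TPM. In such bulk tissue, fewer cells of a type and less RNA per cell cannot be told apart.

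Nuclear genes differed between the sides in small steps and mostly downward. Of 14221 genes tested, 941 were higher and 3351 lower in high-share libraries (6.62% and 23.6% of those tested, 30.2% in all) by limma with the series as a block (threshold 0.05 on the two-sided p after Benjamini-Hochberg adjustment across the table). The median absolute difference among the called genes was 0.23 on the log2 scale, 31 of them passed 1.5-fold and 0 passed 2-fold. The median of all tested genes was -0.08, and the shares and median of all genes are the background for each gene group. The balance between the directions depended on the scaling. Of the called genes 21.9% were higher as above, 36.0% when each library was set to one sum of reads, 42.3% after quantile normalization, 48.6% with median-of-ratios scaling, and 2.64% with the RPKM as deposited and mitochondrial genes kept, where the median of all genes was -0.18. The RPKM as deposited keep the mitochondrial genes, so a high share lowers the nuclear values there by the choice of the sides. Falls and changes of sign toward lower values in that setting are partly built in. In 8 of 8 series 227 of the 941 genes were higher and 673 of the 3351 were lower. Over all tested genes these were 253 and 733 (1.78% and 5.15%).

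The calls rested in large part on one series. Without late unloaded noise 70 genes were higher and 160 lower (0.492% and 1.13%), 2333 were called without late free-moving noise and 2845 without early unloaded a, and with each other series left out the count lay between 3587 and 4988. Without the library early free-moving a number 1 it was 6541 (8.3% higher and 37.7% lower). These shares are the background for the list counts given without that library. Those given without late unloaded noise stand beside 0.492% and 1.13%. The 4 early series alone gave 0 calls with limma (2003 genes before adjustment, at p below 0.05). The 2 late quiet series alone gave 0 calls against 2179 genes, and the 2 late noise series alone gave 7075 calls (8.34% of genes higher and 41.4% lower). With the log2 odds of the share as a continuous term in place of the sides, the early series gave 6003 calls and all series 9472.

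Each series was also left out in turn, the genes called on the other 7, and the left-out series then read. In late unloaded noise all 70 genes called higher without it were higher there as well, where 25.3% of all genes were, and 99.4% of the 160 lower genes were lower, where 74.7% of all genes were. In late free-moving noise these were 86.2% of the higher and 97.1% of the lower genes, against 30.5% and 69.5% of all genes. In early unloaded a they were 83.4% and 97.6%, against 27.5% and 72.5%. In early free-moving a they were 82.8% and 77.0%, against 41.5% and 58.5%, and in early unloaded b 81.3% and 89.4%, against 33.5% and 66.5%. The remaining series came closer to the share of all genes. In early free-moving b 68.2% of the higher genes and 45.6% of the lower genes kept their direction, against 61.0% and 39.0% of all genes. In late free-moving quiet these were 63.1% and 55.0%, against 55.6% and 44.4%, and in late unloaded quiet 52.2% and 41.6%, against 58.7% and 41.3%.

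**Figure D2:**
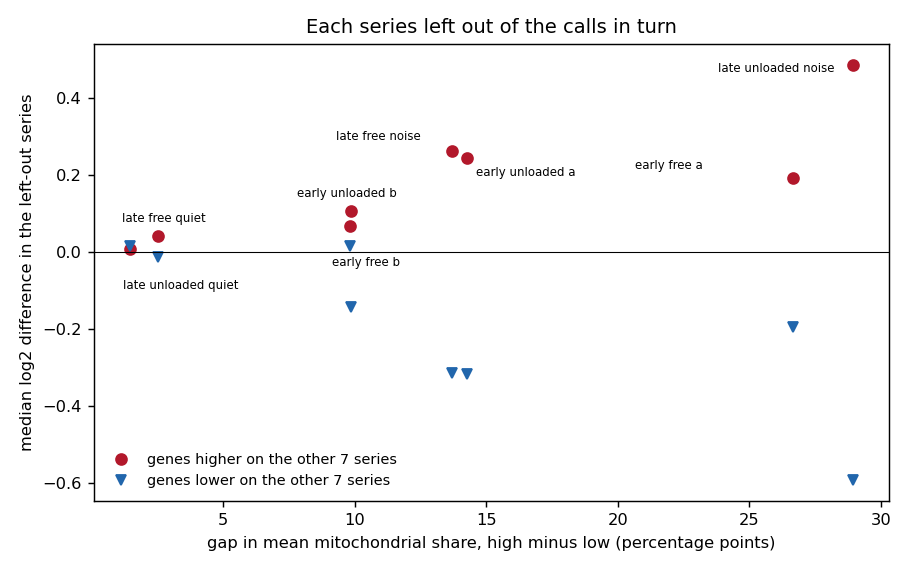
Median log2 difference, high minus low share (y axis), of the genes called on the other 7 series, read in the series left out, against the gap in mean share between its sides (x axis, percentage points). The medians lie between 0.01 and 0.49 for the higher genes, and the widest pair, 0.49 and -0.59, belongs to late unloaded noise with its gap of 28.9 points.

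Among the nuclear-encoded subunits of the respiratory chain and ATP synthase, more members rose than fell. Of 38 subunits of complex I, the NADH dehydrogenase, 16 rose and 4 fell, with a median difference of 0.07. Of 45 subunits of complexes II to V 20 rose and 6 fell, with a median of 0.10. Cox6c, a subunit of cytochrome c oxidase, led by size among the named ones. Cox6c had a median of 880.0 TPM in the high-share libraries (334 to 1163) and of 545 TPM in the low-share libraries (324 to 1169), a rise of log2 0.34 ± 0.07, adjusted p = 0.0011, higher in 8 of 8 series. The ranges of the sides overlapped widely. Atp5j, a subunit of ATP synthase, averaged 469 ± 67.9 TPM in high-share and 404 ± 61.5 TPM in low-share libraries (log2 0.22 ± 0.04, adjusted p = 0.00075, higher in 8 of 8 series). Ndufs5 (log2 0.21), Ndufa6 (log2 0.24), Ndufb9 (log2 0.26) and Cox7b (log2 0.17) rose as well. The members that fell include Ndufa9, an accessory subunit of complex I (log2 -0.26 ± 0.06, adjusted p = 0.0027, lower in 7 of 8 series), and Atp5a1, which forms part of the catalytic head of ATP synthase (log2 -0.23 ± 0.05, adjusted p = 0.0027, lower in 7 of 8 series). With the RPKM as deposited the medians of both lists were -0.05 and -0.01, against -0.18 for all genes. In that setting 3 rose and 14 fell in complex I and 5 and 15 in complexes II to V, beside 1.64% and 60.7% of all genes. With a trend on gene length and GC content removed, 11 rose and 9 fell in complex I and 9 and 5 in complexes II to V, beside 6.17% and 23.6% of all genes. Without early free-moving a number 1, 23 of the complex II to V subunits rose and 11 fell. Without late unloaded noise, 3 of the complex II to V subunits rose and 0 fell. In the same fit, limma called 0 of the complex I subunits (16 at an unadjusted p below 0.05).

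Of the mitochondrial ribosomal proteins 12.8% rose and 10.3% fell, and of the genes that maintain and express the mitochondrial genome 10% and 6.67%, against 6.62% and 23.6% of all genes. Of 78 mitochondrial ribosomal proteins 10 rose and 8 fell, with a median of 0.02. With the RPKM as deposited it was -0.10, against -0.18 for all genes. Mrps34 of the small subunit fell (log2 -0.34 ± 0.08, adjusted p = 0.0037, lower in 8 of 8 series) and Mrps36 rose (log2 0.16). Of 30 genes of mitochondrial DNA maintenance and expression 3 rose and 2 fell. Slirp, which stabilises mitochondrial messengers, rose (log2 0.19 ± 0.05, adjusted p = 0.0058, higher in 7 of 8 series), and so did the tRNA-processing enzyme Elac2 (log2 0.15) and Fastk (log2 0.11, but -0.0097 with the RPKM as deposited). Polg, the catalytic subunit of the mitochondrial DNA polymerase, fell (log2 -0.19 ± 0.06, adjusted p = 0.011, lower in 8 of 8 series). Tfam, which packages and transcribes mitochondrial DNA, did not pass (log2 -0.13 ± 0.06, adjusted p = 0.11, lower in 5 of 8 series). Ppargc1a, a coactivator of mitochondrial biogenesis, did not pass either (log2 -0.08 ± 0.08, adjusted p = 0.45, lower in 4 of 8 series). Among 18 genes of biogenesis and dynamics 2 rose and 3 fell. The falls were the fusion genes Opa1 (log2 -0.28) and Mfn2 (log2 -0.20) and the coactivator Pprc1 (log2 -0.20), and among the rises was Bnip3l, a mitophagy receptor (log2 0.14). Leaving out early free-moving a number 1, 20 of the mitochondrial ribosomal proteins rose and 11 fell, 5 of the maintenance and expression genes rose and 2 fell, and 3 of the biogenesis and dynamics genes rose and 7 fell. Of all genes 8.3% rose and 37.7% fell without that library. Leaving out late unloaded noise, 0 of the mitochondrial ribosomal proteins rose and 1 fell. In the same fit, limma called 0 of the maintenance and expression genes (4 at an unadjusted p below 0.05) and the biogenesis and dynamics genes (5).

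Among genes of energy metabolism, 24.4% of the Slc25 carriers, 22.2% of the citric acid cycle genes and 41.2% of the glycolysis enzymes fell, against 23.6% of all genes tested. Of 41 Slc25 carriers of the inner membrane 0 rose and 10 fell, with Slc25a25, an ATP-magnesium and phosphate carrier (log2 -0.33 ± 0.07, adjusted p = 0.0021, lower in 8 of 8 series), and Slc25a11, the oxoglutarate carrier (log2 -0.19), among them. Of 18 genes of the citric acid cycle and pyruvate dehydrogenase 0 rose and 4 fell, including fumarase Fh1 (log2 -0.21) and malate dehydrogenase Mdh2 (log2 -0.10). The medians of both lists, -0.08 each, equal that of all genes. Of 17 glycolysis enzymes 1 rose and 7 fell. Tpi1, which interconverts the triose phosphates, averaged 918 ± 175 TPM in high-share and 1059 ± 131 TPM in low-share libraries (log2 -0.22 ± 0.05, adjusted p = 0.0019, lower in 8 of 8 series), and Eno2 (log2 -0.27) and Pkm (log2 -0.14) fell too, while Gapdh, which has many processed copies in the genome, rose (log2 0.20). Of 15 mitochondrial chaperones, proteases and genes of the integrated stress response 2 rose and 5 fell. The rises were the transcription factors Ddit3 (log2 0.26, a symbol with a pair of gene IDs) and Atf4 (log2 0.12). Among the falls were Asns, an amino acid synthetase (log2 -0.24), and the protease subunit Afg3l2 (log2 -0.22). When early free-moving a number 1 was left out, 0 of the Slc25 carriers rose and 16 fell, 0 of the citric acid cycle genes rose and 11 fell, and 1 of the glycolysis enzymes rose and 11 fell. Of all genes 8.3% rose and 37.7% fell without that library. When late unloaded noise was left out, 0 of the Slc25 carriers rose and 1 fell, and 0 of the glycolysis enzymes rose and 1 fell. In the same fit, limma called 0 of the citric acid cycle genes (1 at an unadjusted p below 0.05) and the chaperone and stress response genes (5).

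Most genes of the cytosolic ribosome rose. Of 81 ribosomal protein genes tested 56 rose and 1 fell, with a median of 0.19. Their summed level had a median of 116065 TPM in the high-share libraries (49416 to 137507) and of 79263 TPM in the low-share libraries (50696 to 161770.0), and was higher in 6 of 8 series. Rpl21 had a median of 412 TPM in the high-share libraries (156 to 592) and of 256 TPM in the low-share libraries (139.6 to 547) (log2 0.36 ± 0.07, adjusted p = 0.0017, higher in 8 of 8 series). Rpl28 (log2 0.36), Rpl31 (log2 0.35) and Rpl23 (log2 0.25) rose by similar steps. The list median was largest in late unloaded noise (0.58), late free-moving noise and early unloaded a (0.35 each), and it was -0.02 and -0.06 in the late quiet series. It stayed above 0 under each scaling (0.07 to 0.28), with 48 rises and 1 fall after the length and GC trend was removed. Ribosomal protein genes have many near-identical processed copies, and how the authors counted reads with several matches is not given in the sources used here, so their levels are uncertain. Of 37 proteasome subunits 3 rose and 12 fell (8.11% and 32.4%, against 6.62% and 23.6% of all genes). Among the falls were Psmb7 (log2 -0.38 ± 0.09, adjusted p = 0.0043, lower in 7 of 8 series) and Psma6 (log2 -0.24). Without early free-moving a number 1, 7 of the proteasome subunits rose and 12 fell. Without late unloaded noise, 2 of the cytosolic ribosomal proteins rose and 0 fell, and 0 of the proteasome subunits rose and 1 fell.

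Myelin genes were among the largest rises. Mobp, a structural protein of central myelin (ENSMUSG00000032517.16, chromosome 9, 120149707 to 120181484 in GRCm38), was higher in every series. Mobp had a median of 1342 TPM in the high-share libraries (735 to 3324) and of 973 TPM in the low-share libraries (673 to 1685), a rise of log2 0.58 ± 0.10, adjusted p = 0.00092, higher in 8 of 8 series. Over all series the ranges overlapped, while within 5 of the 8 series every high-share library lay above every low-share library. Myelin basic protein Mbp averaged 4083 ± 1983 TPM in high-share and 2609.9 ± 959 TPM in low-share libraries (log2 0.56 ± 0.12, adjusted p = 0.0017, higher in 8 of 8 series). The difference in Mbp was 1.58 in early free-moving a, 1.19 in late unloaded noise and 0.04 in late free-moving quiet. Bcas1 (log2 0.56), which marks newly formed oligodendrocytes, and Prr18 (log2 0.57) belonged to the 14 largest rises too. Of 16 myelin and oligodendrocyte markers 5 rose and 2 fell, the falls including Pdgfra, a receptor of oligodendrocyte precursors (log2 -0.36 ± 0.09, adjusted p = 0.0038, lower in 7 of 8 series). The list median was 0.01, and with the RPKM as deposited it was -0.11 with 4 rises and 7 falls (all genes -0.18). The summed level of the list was higher on the high side in 8 of 8 series, with medians of 9239.7 and 7839.9 TPM. Leaving out early free-moving a number 1, 5 of the myelin and oligodendrocyte markers rose and 4 fell. Leaving out late unloaded noise, 3 of the myelin and oligodendrocyte markers rose and 0 fell.

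**Figure D3:**
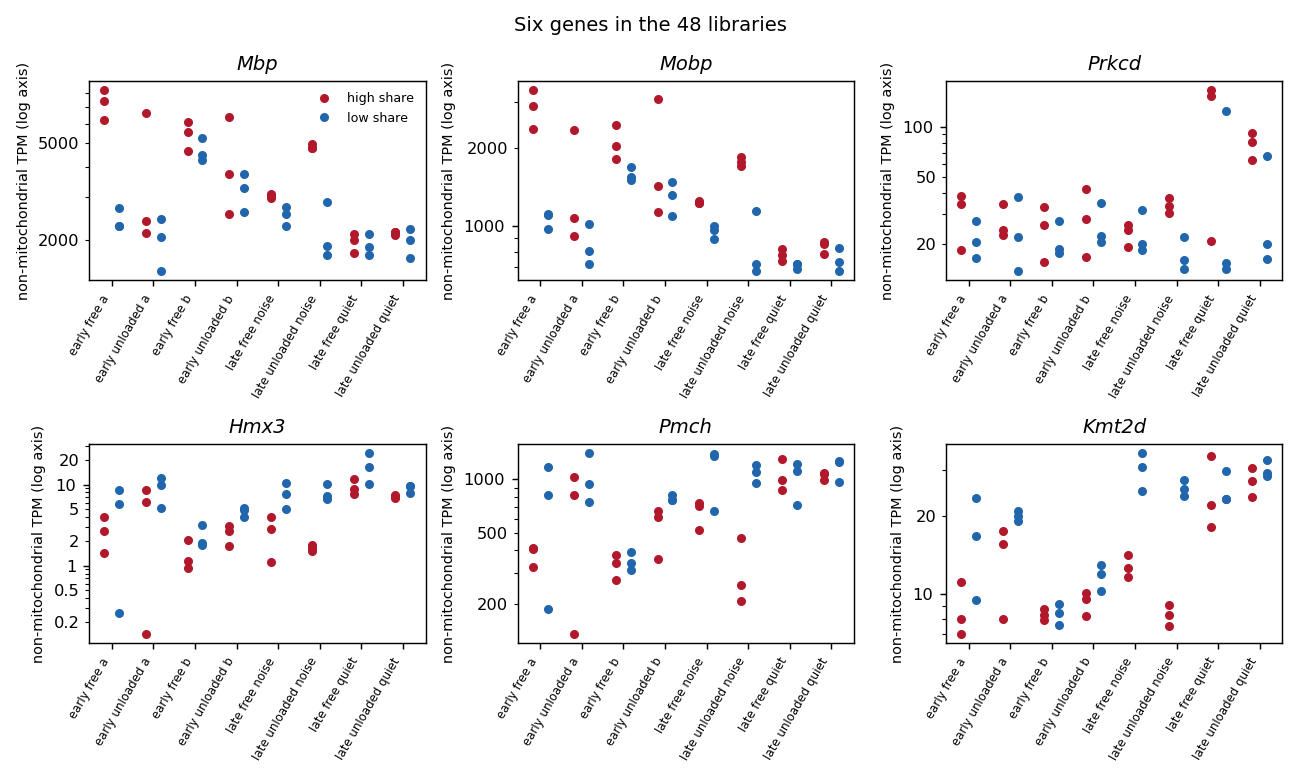
Non-mitochondrial TPM (y axis, log scale) of 6 genes in each library, by series, with high-share libraries left of low-share libraries. Mobp and Mbp are higher on average on the high side in 8 of 8 series, Hmx3 and Kmt2d are lower in 8 of 8, and Prkcd differs most in the late quiet series.

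Other glial and vascular markers were read beside all genes tested, of which 6.62% were called higher and 23.6% lower. Astrocyte markers stood at 8.33% and 33.3%, microglia markers at 15.4% and 0%, and tanycyte and ependymal markers at 20% and 0%. Endothelial markers stood at 8.33% and 8.33%, and mural and meningeal markers at 6.67% and 0%. Of 12 astrocyte markers 1 rose and 4 fell: S100b, a calcium-binding protein that oligodendrocytes also express, rose (log2 0.28 ± 0.07, adjusted p = 0.0035, higher in 8 of 8 series), while the glutamate transporters Slc1a2 (log2 -0.28) and Slc1a3 (log2 -0.24) and the growth factor receptor Fgfr3 (log2 -0.31) fell. Of 13 microglia markers Aif1 (log2 0.36 ± 0.11, adjusted p = 0.012, higher in 8 of 8 series) and Tyrobp (log2 0.21) rose and 0 fell. Of 15 tanycyte and ependymal markers 3 rose, all genes of motile cilia (Dynlrb2 log2 0.27, Rsph1 log2 0.23, Ccdc153 log2 0.20), and 0 fell. The list median was 0.07, and -0.05 with the RPKM as deposited, against -0.18 for all genes in that setting. Of 12 brain endothelial markers 1 rose and 1 fell, and of 15 mural and meningeal markers Igf2, a growth factor of the meninges, rose (log2 0.38). Of 7 blood cell markers 0 passed at an adjusted p below 0.05 with limma. When early free-moving a number 1 was left out, 1 of the astrocyte markers rose and 7 fell, 2 of the microglia markers rose and 2 fell, 4 of the tanycyte and ependymal markers rose and 2 fell, 1 of the endothelial markers rose and 2 fell, and 1 of the mural and meningeal markers rose and 1 fell. The shares of all genes were 8.3% and 37.7% without that library. When late unloaded noise was left out, limma called 0 of the astrocyte markers (3 at an unadjusted p below 0.05), the microglia markers (2), the tanycyte and ependymal markers (2), the endothelial markers (1) and the mural and meningeal markers (2).

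Transcription factors that pattern the hypothalamus fell or did not pass. Of 21 transcription factors of hypothalamic neurons 0 rose and 11 fell, with a median of -0.23, and this median stayed between -0.29 and -0.16 under each scaling. Hmx3, a homeobox factor of hypothalamic neurons (ENSMUSG00000040148.5, chromosome 7, 131542867 to 131544925 in GRCm38), showed the largest fall among the named genes. Hmx3 had a median of 2.77 TPM in the high-share libraries (0.143 to 11.6) and of 7.53 TPM in the low-share libraries (0.258 to 24.6), a fall of log2 -0.84 ± 0.18, adjusted p = 0.002, lower in 8 of 8 series. Over all series the ranges overlapped, while within 4 of the 8 series every high-share library lay below every low-share library. Otp, needed for neuroendocrine neurons of the paraventricular and other nuclei, averaged 41.4 ± 9.37 TPM in high-share and 55.3 ± 12.8 TPM in low-share libraries (log2 -0.40 ± 0.08, adjusted p = 0.0016, lower in 8 of 8 series). Nr5a1, which marks the ventromedial nucleus (log2 -0.42 ± 0.09, adjusted p = 0.0019, lower in 8 of 8 series), and Bsx, a factor of arcuate and dorsomedial neurons (log2 -0.39 ± 0.08, adjusted p = 0.0019, lower in 8 of 8 series), fell in every series as well. The list median was below 0 in 7 of the 8 series, and it was -0.15 and -0.17 in the late quiet series, where all genes stood at 0.02 and the share differed least. Without early free-moving a number 1, 1 of the hypothalamic transcription factors rose and 14 fell. Without late unloaded noise, 0 of the hypothalamic transcription factors rose and 4 fell.

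Few neuropeptides were called. Of 27 tested 2 rose and 4 fell (7.41% and 14.8%, against 6.62% and 23.6% of all genes), with a median of 0.05. Pmch, the precursor of melanin-concentrating hormone in lateral hypothalamic neurons (ENSMUSG00000035383.7, chromosome 10, 88091072 to 88092375 in GRCm38), fell most. Pmch had a median of 566 TPM in the high-share libraries (136 to 1307) and of 951 TPM in the low-share libraries (189 to 1409), a fall of log2 -0.62 ± 0.18, adjusted p = 0.0095, lower in 7 of 8 series. In late unloaded noise the difference was -1.89, and in late free-moving quiet 0.07. Hcrt, the orexin precursor of the same region, averaged 837 ± 211 TPM in high-share and 979.8 ± 199 TPM in low-share libraries (log2 -0.24 ± 0.07, adjusted p = 0.013, lower in 8 of 8 series). Npvf, which codes for RFamide peptides of the dorsomedial nucleus, fell (log2 -0.40 ± 0.09, adjusted p = 0.0036, lower in 7 of 8 series), and Adcyap1, the precursor of PACAP, also fell (log2 -0.18). Avp, the vasopressin precursor, did not pass (log2 0.18 ± 0.13, adjusted p = 0.3, higher in 5 of 8 series), nor did Oxt, the oxytocin precursor (log2 0.11 ± 0.10, adjusted p = 0.42, higher in 6 of 8 series), or Pomc of the arcuate nucleus (log2 0.02 ± 0.18, adjusted p = 0.95, higher in 3 of 8 series). With the RPKM as deposited the list median was -0.05 with 0 rises and 10 falls, beside a median of -0.18 for all genes. Leaving out early free-moving a number 1, 6 of the neuropeptides rose and 7 fell, beside 8.3% and 37.7% of all genes. Leaving out late unloaded noise, 0 of the neuropeptides rose and 1 fell.

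Some markers of the tissue next to the hypothalamus differed between the sides. Of 11 thalamus markers 4 rose and 0 fell (36.4% and 0%, against 6.62% and 23.6% of all genes), with a median of 0.22. Their summed level had medians of 892 TPM in high-share and 832 TPM in low-share libraries and was higher in 4 of 8 series. Prkcd, a kinase of thalamic relay neurons (ENSMUSG00000021948.17, chromosome 14, 30595354 to 30626210 in GRCm38), was higher in every series. Prkcd had a median of 31.8 TPM in the high-share libraries (15.5 to 166) and of 20.1 TPM in the low-share libraries (13.6 to 124), a rise of log2 0.60 ± 0.20, adjusted p = 0.025, higher in 8 of 8 series. The difference was largest in the late quiet series, at 1.40 in free-moving and 1.45 in unloaded mice, and 0.02 in late free-moving noise. The late quiet libraries fell into separate levels: 5 of the 6 on the high side lay between 63.6 and 166 TPM and 1 at 20.8 TPM, while 2 of the 6 on the low side had 67.1 and 124 TPM and the other 4 between 14.1 and 19.9 TPM. Tnnt1, a troponin that thalamic neurons express (log2 0.71 ± 0.23, adjusted p = 0.018, higher in 8 of 8 series), Ramp3, a receptor-modifying protein (log2 0.54), and Tcf7l2, a transcription factor of the thalamus (log2 0.38), also differed most in the late quiet series. Gbx2, a factor of thalamic development outside the list, rose as well (log2 0.68 ± 0.22, adjusted p = 0.017, higher in 7 of 8 series). The thalamus list had medians of 0.79 in late unloaded quiet and 0.76 in late free-moving quiet, where the share gap was smallest, and between -0.20 and 0.25 in the other 6. Of 13 striatum markers 2 rose and 0 fell, with a median of 0.16: Ppp1r1b, the dopamine-regulated phosphoprotein of medium spiny neurons (log2 0.60 ± 0.23, adjusted p = 0.044, higher in 8 of 8 series), and Rgs9 (log2 0.34). Of 10 cortex and hippocampus markers 0 rose and 1 fell, with a median of -0.09, and the summed level was higher on the high side in 2 of 8 series. When early free-moving a number 1 was left out, 5 of the striatum markers rose and 0 fell. When late unloaded noise was left out, limma called 0 of the thalamus markers (6 at an unadjusted p below 0.05), the striatum markers (4) and the cortex and hippocampus markers (0).

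Pituitary and choroid plexus markers ranged widely between libraries. The summed pituitary level had a median of 460.0 TPM in high-share libraries (355 to 585) and of 497 TPM in low-share libraries (385 to 35966) and was higher on the high side in 0 of 8 series. Of 10 markers 2 fell (20%, against 23.6% of all genes), among them Dlk1 (log2 -0.27 ± 0.06, adjusted p = 0.0021, lower in 8 of 8 series). The hormone genes Prl (log2 -0.68 ± 0.50, adjusted p = 0.29, lower in 6 of 8 series) and Gh (log2 -0.82 ± 0.68, adjusted p = 0.35, lower in 6 of 8 series) did not pass, and the median of Prl was 0 TPM on both sides. The choroid plexus gene Ttr, a thyroid hormone carrier, did not pass (log2 0.68 ± 0.45, adjusted p = 0.24, higher in 5 of 8 series). Ttr had a median of 21.7 TPM in the high-share libraries (6.07 to 1203) and of 14.1 TPM in the low-share libraries (2.16 to 819.7). Without late unloaded noise, 0 of the pituitary markers rose and 1 fell. The part of such neighbouring or contaminating tissue in the other differences was not tested.

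**Figure D4:**
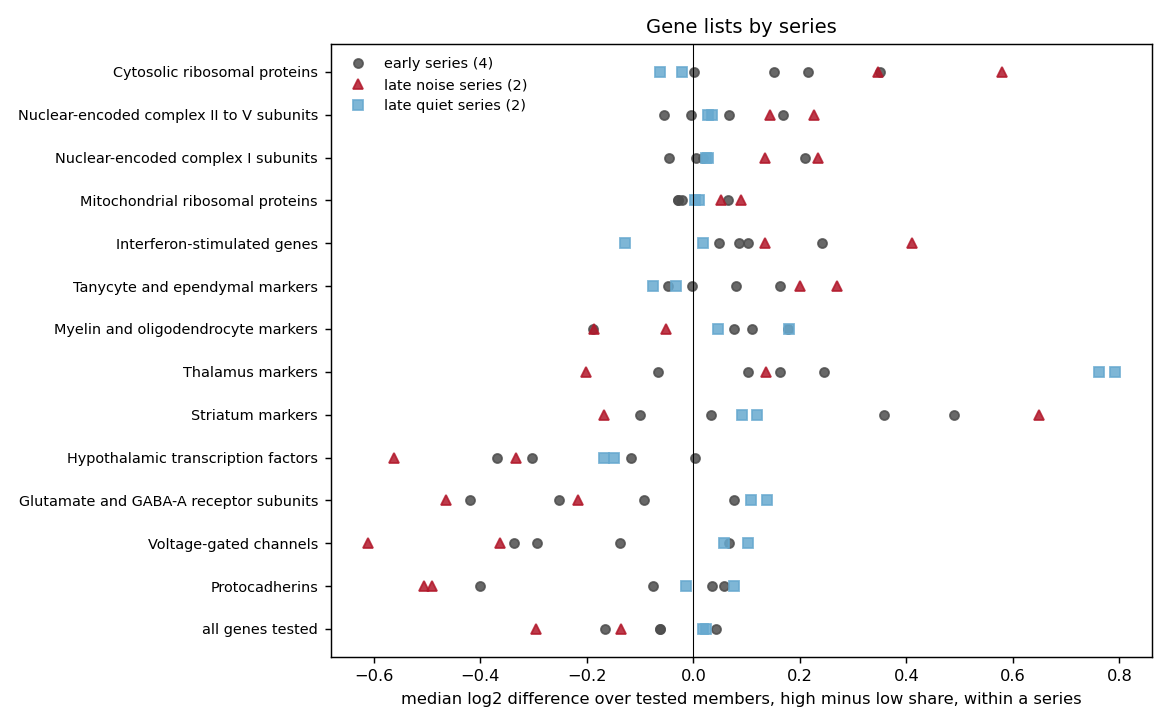
Median log2 difference over the tested members of 13 gene lists and of all genes tested (x axis, high minus low share), within each of the 8 series. Cytosolic ribosomal proteins reach 0.58 in late unloaded noise, thalamus markers 0.76 and 0.79 in the late quiet series, and hypothalamic transcription factors are below 0 in 7 of 8 series.

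Among genes of neuronal excitability and adhesion, 40.7% of the voltage-gated channels and 29.0% of the ionotropic receptor subunits fell, against 23.6% of all genes, while the protocadherins (20%) and pan-neuronal genes (21.4%) lay below that share. Of 54 voltage-gated channel genes 1 rose and 22 fell, with a median of -0.17, and this median stayed below 0 under each scaling (-0.28 to -0.10). Kcnc4 had a median of 49.1 TPM in the high-share libraries (35.9 to 116) and of 78.2 TPM in the low-share libraries (41.8 to 115), a fall of log2 -0.39 ± 0.07, adjusted p = 0.00092, lower in 8 of 8 series. It codes for a potassium channel subunit, and its ranges overlapped. The calcium channels Cacna1i (log2 -0.34) and Cacna1b (log2 -0.33) fell as well. Of 31 ionotropic glutamate and GABA-A receptor subunits 1 rose and 9 fell. Grin2b, an NMDA receptor subunit, fell by size most among the named ones (log2 -0.47 ± 0.14, adjusted p = 0.011, lower in 6 of 8 series), with Grik3 (log2 -0.34) and Gria1 (log2 -0.20). The rise was Gabrd, the delta subunit of extrasynaptic GABA-A receptors, which is strong in thalamus: Gabrd had a median of 22.6 TPM in the high-share libraries (3.76 to 39.4) and of 13.2 TPM in the low-share libraries (2.13 to 38.4) (log2 0.71 ± 0.25, adjusted p = 0.028, higher in 7 of 8 series). Of 55 protocadherins 0 rose and 11 fell, with a median of -0.20, among them Pcdh1 (log2 -0.29). Clustered protocadherins share exons, which makes their split uncertain. Of 14 pan-neuronal genes 1 rose, Tubb3 (log2 0.08, but -0.0473 with the RPKM as deposited), and 3 fell, among them the synaptic vesicle protein Syn1 (log2 -0.26). Without early free-moving a number 1, 2 of the receptor subunits rose and 15 fell, 0 of the protocadherins rose and 24 fell, and 1 of the pan-neuronal genes rose and 8 fell. The shares of all genes were 8.3% and 37.7% without that library. Leaving out late unloaded noise, 0 of the channels rose and 1 fell. In the same fit, limma called 0 of the receptor subunits (11 at an unadjusted p below 0.05), the protocadherins (8) and the pan-neuronal genes (4).

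Gene length moved with the direction across the whole table. When the tested genes were cut into 5 equal groups by summed exon length, in the shortest group (median 1735 bases) 14.2% were called higher and 10.8% lower in high-share libraries. In the 3 groups between, from short to long, 6.98%, 4.80% and 4.62% were higher and 20.1%, 24.5% and 27.9% lower. In the longest group (median 9915 bases) 2.17% were higher and 34.9% lower. The median exon length was 2799 bases for genes called higher and 5483.5 for genes called lower, against 4423 for all tested genes. The ribosomal and respiratory chain genes are short (list medians 1781, 1532 and 1675 bases), and the channels are long (8333.5 bases). Mobp (6849 bases), Mbp (8469) and Prkcd (5544) are longer than the median and rose, while Hmx3 (1457) and Pmch (749) are short and fell. With a length and GC trend removed from each library, 4192 genes were called, 868 higher and 3324 lower, and the part of length in single differences was not tested further.

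**Figure D5:**
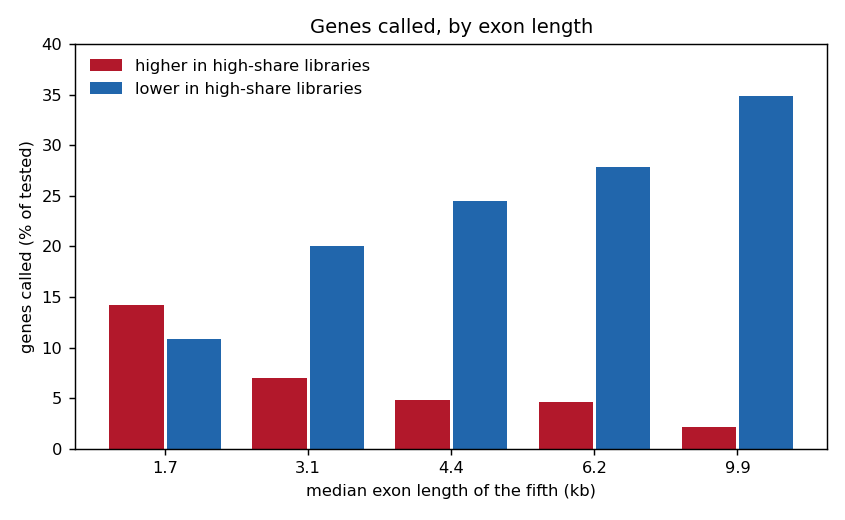
Share of tested genes called (y axis, %) higher and lower in high-share libraries, in 5 equal groups by summed exon length (x axis, median length in kb). The share called higher is 14.2% in the shortest and 2.17% in the longest group, and the share called lower 10.8% and 34.9%.

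The largest rises and falls outside these lists were as follows. Npff, a neuropeptide FF precursor, rose by log2 0.76 ± 0.18, adjusted p = 0.0034, higher in 7 of 8 series, with medians of 14.2 TPM in high-share and 5.74 TPM in low-share libraries. Prr22 averaged 9.57 ± 4.22 TPM in high-share and 5.62 ± 2.64 TPM in low-share libraries (log2 0.66 ± 0.09, adjusted p = 8.8e-05, higher in 8 of 8 series). Tnni3 (log2 0.64), a troponin known from the heart, Tm6sf2 (log2 0.56), a protein of lipid export, and Pvalb, the calcium buffer of fast-spiking neurons (log2 0.59 ± 0.16, adjusted p = 0.0086, higher in 7 of 8 series), completed the rises. Among the falls stood Kmt2d, a histone H3 lysine methyltransferase (ENSMUSG00000048154.17, chromosome 15, 98831669 to 98871204 in GRCm38). Kmt2d had a median of 10.6 TPM in the high-share libraries (7.00 to 34.1) and of 23.2 TPM in the low-share libraries (7.63 to 35.0), a fall of log2 -0.58 ± 0.11, adjusted p = 0.00092, lower in 8 of 8 series. Every high-share library lay below every low-share library in 4 of the 8 series, both late noise series among them, and the sides overlapped in the other 4. Zkscan16, a zinc finger gene (log2 -0.72 ± 0.18, adjusted p = 0.0053, lower in 7 of 8 series), Sstr1, a somatostatin receptor (log2 -0.67 ± 0.17, adjusted p = 0.0057, lower in 7 of 8 series), Med12l, a mediator subunit (log2 -0.64), Dgkq, a diacylglycerol kinase (log2 -0.62), Rnpc3, a minor spliceosome component (log2 -0.62), Zgpat (log2 -0.61), Ankrd52 (log2 -0.60), Cers1, the ceramide synthase of neurons (log2 -0.58), Ubap1l (log2 -0.56), Dock3 (log2 -0.56) and the imprinted Zim1 (log2 -0.54) fell too. For Zkscan16 the difference came to -2.03 in late unloaded noise and -0.01 in late unloaded quiet.

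Activity and clock lists held falls and no rises, at 16.7% of the immediate early genes and 26.3% of the clock genes, against 23.6% of all genes. Of the hypoxia targets 20% rose and 20% fell, and of the RNA decay list 41.7% fell. Of 18 immediate early genes 0 rose and 3 fell, Btg2 (log2 -0.32 ± 0.12, adjusted p = 0.03, lower in 7 of 8 series), Jun (log2 -0.22) and Fosl2 (log2 -0.23), while Fos, a marker of recent neuronal activity, averaged 29.5 ± 24.5 TPM in high-share and 33.5 ± 26.2 TPM in low-share libraries and did not pass (log2 -0.18 ± 0.15, adjusted p = 0.37, lower in 5 of 8 series). Of 19 clock and clock output genes 0 rose and 5 fell, among them Tef (log2 -0.29), Cry2 (log2 -0.26), Per3 (log2 -0.34) and Bhlhe41 (log2 -0.24). Per3 differed by -0.80 in early free-moving a and -1.10 in late unloaded noise, and by -0.49 to 0.11 in the other series. For Tef the values were -0.68 and -0.98 in these series, and -0.28 to 0.02 in the others. The high side took 3, 3, 4, 6, 4 and 4 of the 8 libraries numbered 1, 5, 9, 13, 17 and 21. This spread did not pass a permutation test (upper tail of the squared deviations from 4, p = 0.847 unadjusted). That test adds up the series, so opposite splits cancel in it. The high side held numbers 9, 13 and 17 in early free-moving a and late unloaded noise, and numbers 1, 5 and 21 in early unloaded a. In those series the side and this split of the numbers cannot be told apart. Of 15 glucocorticoid-responsive genes 0 passed at an adjusted p below 0.05 with limma, with a median of -0.18. Of 15 cytosolic heat shock genes 1 rose, the small chaperone Cryab (log2 0.25). Of 16 interferon-stimulated genes 3 rose and 0 fell, with a median of 0.15, among them Ifitm3 (log2 0.27) and Ifit1 (log2 0.31). Of 15 targets of hypoxia-inducible factors 3 rose and 3 fell, and of 17 antioxidant genes 1 rose and 1 fell. Of 12 cold-inducible and RNA decay genes 0 rose and 5 fell, led by the exonuclease Xrn1 (log2 -0.33 ± 0.09, adjusted p = 0.0065, lower in 6 of 8 series) and with the decapping genes Dcp2 (log2 -0.25) and Dcp1a (log2 -0.27) and the deadenylase scaffold Cnot1 (log2 -0.17). Of 31 splicing factors 2 rose and 2 fell, and of 320 Zfp zinc finger genes 10 rose and 45 fell, both below the share of all genes called in each direction. Leaving out early free-moving a number 1, 0 of the clock genes rose and 8 fell, 1 of the glucocorticoid-responsive genes rose and 1 fell, 1 of the heat shock genes rose and 1 fell, 5 of the interferon-stimulated genes rose and 2 fell, and 2 of the hypoxia targets rose and 6 fell. When early free-moving a number 1 was left out, 1 of the antioxidant genes rose and 4 fell, 0 of the RNA decay list rose and 9 fell, 3 of the splicing factors rose and 6 fell, and 11 of the Zfp genes rose and 102 fell. All these counts stand beside 8.3% of all genes higher and 37.7% lower without that library. When late unloaded noise was left out, 0 of the Zfp genes rose and 1 fell. In the same fit, limma called 0 of the immediate early genes (1 at an unadjusted p below 0.05), the clock genes (4), the heat shock genes (1), the interferon-stimulated genes (5), the hypoxia targets (2), the antioxidant genes (1), the RNA decay list (4) and the splicing factors (3).

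Whether the difference between the sides itself depended on the conditions was tested as an interaction. Between the late and early series no gene passed at an adjusted p below 0.05 (limma, 364 genes at an unadjusted p below 0.05). Nor did any between unloaded and free-moving series (453 genes). Both tests pool noise and quiet series, which differed as given below, so they do not show that the difference was alike. The smallest p between late and early series belonged to Xrra1, Phactr4 and Klhl2, and between unloaded and free-moving series to Rln1, Gp9 and Ccdc189, none of which passed. Within the late period the difference between the sides differed between noise and quiet for 6683 genes (47% of those tested). It was more positive in noise for 917 and more negative for 5766. Syne1, which links the nucleus to the cytoskeleton, differed between high-share and low-share libraries by log2 -1.76 in late unloaded noise and -1.27 in late free-moving noise, against 0.08 and 0.11 in the quiet series of unloaded and free-moving mice (difference -1.61 ± 0.16, adjusted p = 5.4e-06). Cacng7, an auxiliary subunit of AMPA receptors, followed (-1.05 ± 0.11, adjusted p = 5.4e-06), with Gm9833 (-1.61 ± 0.18) and Slc6a11, a GABA transporter of astrocytes (-0.997 ± 0.12). The gap in share was 28.9 and 13.7 points in the noise series and 1.47 and 2.53 points in the quiet series, so noise and the size of the gap cannot be told apart with the sides. Per unit of log2 odds of the share limma called 0 genes between noise and quiet (smallest adjusted p = 0.0531, 1995 genes at an unadjusted p below 0.05). The sides differed by only 0.37 and 0.17 log2 odds in the free-moving and unloaded quiet series. In the free-moving and unloaded noise series they differed by 1.02 and 2.10. A slope in quiet is thus poorly fixed, and the 0 calls do not show that the slopes were alike.

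Measures of whole libraries that the rule did not use were compared last, with permutation tests within series (two-sided, 100000 resamples, adjusted over 5 tests). The 100 most abundant nuclear genes took 24.6 ± 4.17% of TPM in high-share and 22.8 ± 3.80% in low-share libraries (SD, n = 24 each; difference 1.86 points, p = 0.0132, adjusted 0.041, higher in 5 of 8 series). The exon length averaged over TPM was 3459 ± 341 bases in high-share and 3575 ± 306 bases in low-share libraries (difference -117, permutation p = 0.0164, adjusted 0.041, higher in 3 of 8 series). Without late unloaded noise the unadjusted p-values of these measures were 0.147 and 0.172, and without late free-moving noise that of the length was 0.0687. Estimated depth was 37.1 ± 2.86 M reads in high-share and 39.7 ± 5.32 M reads in low-share libraries and did not pass (permutation p = 0.0465, adjusted 0.0775). Without early free-moving a, the series of the shallowest library (28.3 M reads, low side), the difference in depth was -3.50 M reads (unadjusted permutation p = 0.0056). Without late free-moving noise that p was 0.0367, and without each other series it lay between 0.0676 and 0.132. The number of genes at 1 TPM or more was 14099 ± 125 and 14128 ± 182 and did not pass (adjusted p = 0.597).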

How the data were processed

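RNA sequencing libraries of hypothalamus, each from pooled tissue of 3 mice, were read from one table of 21558 genes and 48 libraries. The values are RPKM as deposited by the authors. Per the submitters' processing notes CASAVA 1.8 and HISAT were used. HISAT version, genome build, annotation, strand setting and multi-mapping rule were not given in the sources used here. The libraries and gene lists were chosen with earlier results of these data known.

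From the RPKM, 13 mitochondrial genes were removed and each library was set to a sum of 1000000 (TPM). Genes with a mean of at least 1 TPM were tested on log2(TPM + 1) with limma 3.58.1 in R 4.3.3, with an intensity trend, the series as a block and Benjamini-Hochberg adjustment over all of them. All log2 differences are high minus low share on this scale, ± the standard error, and understate changes of low genes. Named genes were the 14 largest called rises and falls (mean of at least 5 TPM, same sign in at least 7 series), up to 4 called members per list by smallest p, a fixed set of hypothalamic, pituitary and mitochondrial genes, and the first genes of each interaction. Some genes that this rule names are not reported here. Symbols were matched to GENCODE M21 on GRCm38 for 21191 genes, which gave IDs, coordinates and exon lengths.

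Depth was estimated from the steps of low RPKM values. Of the values of up to 12 reads, 63.3% to 69.3% came out whole within 0.02 reads, where chance gives 4%, so whole reads were not recovered and no count test was run. The scripts were tested on simulated data. The alternatives were other scalings, filters, pseudocounts, terms and left-out libraries.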

Additional observations from a re-analysis of the deposited data

Results flagged for a closer look

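Of 32 groups of 6 libraries (4 measures in 8 series), 6 had a library far from the other 5 by Dixon's criterion, where chance gives about 1 in 20. In early unloaded a, number 1 gave 30.3% of TPM to its 100 most abundant genes (nearest 23.6%) and had a TPM-weighted exon length of 3112 bases (nearest 3504). Early free-moving a number 1 had 13485 genes at 1 TPM or more (nearest 13956), and early free-moving b number 1 had 13743 (nearest 13974). In late free-moving quiet, number 21 had an estimated depth of 48.3 M reads (nearest 38.7), and number 5 an exon length of 4242 bases (nearest 4104).

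The difference between the sides differed between noise and quiet in the late period for 6683 genes, by the interaction test described above.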

How the results depend on the processing

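The count of calls changed both with the series used and with the processing. The count of 4292 genes became 8532 with the RPKM as deposited, 9472 with the continuous share, 2508 with array weights, 7075 in the late noise series alone and 8545 in the late series with the continuous share. It was 0 in the early, the late quiet and the free-moving series alone with limma (2003, 2179 and 1588 genes at an unadjusted p below 0.05), and 515 in the early series without early free-moving a number 1. Without that library it was 6541 in all series. Leaving out each series gave 230 to 4988 calls, and leaving out each title number 1785 to 5175. With the title number as a replicate block it was 4587, and the interactions 0, 0 and 5622. The deviations of same-numbered libraries of other series had a median correlation of 0.074 over 168 pairs, 41.7% of them over 0.1, against -0.014 and 23.0% over 840 other pairs. Same-numbered pairs were thus over 0.1 more often than other pairs, though not every one was (lowest -0.50). The labels do not say what the number marks, so the main fit did not pair the samples by it. A part shared by number was not excluded. With the continuous share the noise interaction gave 0 calls, though the quiet series span little of the share. Leaving out each series moved the difference in depth between -3.50 and -2.04 M reads (M, 1000000), in genes at 1 TPM between -48.5 and -3.71, in the share of the top 100 genes between 1.13 and 2.22 points, and in exon length between -142.6 and -68.1 bases. Other alternatives kept the count of calls within 1.5 times. The settings for single libraries, for the late quiet, late noise, unloaded or free-moving series alone, for the continuous share within a period or in the interactions, and for the library measures were chosen after seeing the data. The cause of these changes was not tested. Depth limits genes of few reads, for which 1 read is a large step.

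Of the named genes, these changed sign (log2 difference under the setting). Under the RPKM as deposited, where the median of all genes was -0.18, they were Fastk -0.0097, Tubb3 -0.0473, Oxt -0.0121 and Pomc -0.10. With array weights they were Avp -0.0305, Oxt -0.0743, Pomc -0.17 and Ppargc1a 0.0365. For the continuous share it was Gh 0.20. Under the early series alone they were Fos 0.0441, Pomc -0.15, Xrra1 -0.11 and Phactr4 0.17. With the early series alone and the continuous share they were Gbx2 -0.0426, Ramp3 -0.0061, Fos 0.0411, Prl 0.0237, Gh 0.45, Phactr4 0.0791 and Rln1 0.021. For the early series without early free-moving a number 1 they were Fos 0.0197, Pomc -0.13, Xrra1 -0.0743 and Phactr4 0.11. Under the free-moving series alone they were Rln1 0.14, Gp9 -0.27 and Ccdc189 -0.10. With the late noise series alone they were Tcf7l2 -0.0112 and Klhl2 -0.0721. For the late quiet series alone they were Zkscan16 0.0249, Med12l 0.0057, Rnpc3 0.0661, Dock3 0.0168, Elac2 -0.0325, Opa1 0.12, Fh1 0.022, Asns 0.0874, Gapdh -0.0601, Rpl28 -0.0213, Rpl23 -0.0029, Rpl31 -0.0214, Cry2 0.0073, Grin2b 0.24, Slc1a2 0.14, Igf2 -0.15, Ifitm3 -0.15, Xrn1 0.0186, Cnot1 0.0013, Dcp2 0.15, Dcp1a 0.0864, Avp -0.30, Oxt -0.38, Pomc -0.42, Gh 0.21, Tfam 0.0828, Ppargc1a 0.25, Gp9 -0.12, Ccdc189 -0.10, Syne1 0.0969, Cacng7 0.14 and Gm9833 0.18. Under the late series alone it was Klhl2 -0.033. With the late series alone and the continuous share they were Npvf 0.0244 and Klhl2 -0.0463. For the length and GC trend removed they were Oxt -0.10 and Pomc -0.092. Under median-of-ratios scaling it was Ppargc1a 0.001. With quantile normalization they were Avp -0.0665 and Ppargc1a 0.0112. For the unloaded series alone it was Pomc -0.0159. Across settings that leave out a library, title number or series, Pomc lay between -0.13 and 0.16. Across settings that leave out a library, title number or series, Gh lay between -1.31 and 0.32. Across settings that leave out a library, title number or series, Phactr4 lay between -0.15 and 0.0041.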
